A study of Mus musculus with 4 samples.

Results

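Cytosolic ribosomal proteins are the protein components of the 80S ribosome of the cytoplasm, and their genes are among the most actively transcribed by RNA polymerase II in growing cells. The large subunit proteins (Rpl symbols) surround the peptidyl transferase centre and the exit tunnel, and the small subunit proteins (Rps symbols) surround the decoding site. MED1 is a subunit of Mediator, the complex through which DNA-bound regulators contact the polymerase, and its ChIP signal marks promoters and enhancers where Mediator is bound. The genes described here are the RefSeq protein-coding genes of the mouse whose symbol starts with Rpl or Rps followed by a digit or by p0, p1 or p2, together with Rpsa, leaving out the Rps6k kinase genes. This rule found 91 of 21887 protein-coding genes of the autosomes and sex chromosomes, 56 with an Rpl symbol and 35 with an Rps symbol. It used only symbols and no measured value. Of the 91, 77 are core ribosomal protein genes and 13 are paralogs or member-like copies (Rpl3l, Rpl7l1, Rpl10l, Rpl22l1, Rpl31-ps12, Rpl32l, Rpl34-ps1, Rpl36al, Rpl37rt, Rpl39l, Rps23rg1, Rps27l and Rps27rt). Rpl32l, Rpl37rt and Rps23rg1 were placed among the copies after they were seen to have no region at an end, so the split is not independent of the outcome. The remaining one, Rps19bp1, encodes a binding partner of Rps19 and not a ribosomal protein.

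The cells were RAW 264.7, an established mouse line that resembles macrophages. MED1 ChIP-seq libraries were made from untreated cells (n = 2) and from cells given lipopolysaccharide (LPS), a bacterial envelope component, for 2 h (n = 2), at 10 ng/mL by the sample labels or at 100 ng/mL by the protocol text. The labels do not say whether the libraries of a group came from separate cultures. The data are positions on mm10 in 1 interval list for the 4 libraries, with no height, significance or library of origin for any interval. Untreated and stimulated cells could therefore not be compared, read depth is unknown, and no spread between libraries can be given: every value below is a single measurement over this list. Abutting intervals were joined, which gave 22570 regions, and a region was counted at a gene end when it overlapped the 1 kb on either side of the first or last base of the gene. As a check of the cell type, 10 of 10 macrophage markers had such a region, against 1 of 5 T cell, 1 of 5 B cell, 0 of 5 neuronal and 0 of 5 hepatocyte markers.

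A MED1 region lay at an end of most ribosomal protein genes, 77 of the 80 obtained when Rpl32l, Rpl37rt and Rps23rg1 are counted as core, and these regions were wide and often covered the whole gene. Promoters at the extremes of this range are shown first, as the 100 bases before and the first 20 bases from the RefSeq start (GRCm38.p6, the assembly that mm10 names). Rpl12, Rpl38 and Rpl35 had regions among the widest. Rpl26 and the paralog Rpl22l1 had narrow regions, and Rpl10l, a testis-expressed copy of Rpl10, had none. Capitals mark 4 kinds of match, described with their counts further on: a pyrimidine start, a TATA box, an ETS core and an SP core. The core of a further factor, YY1, was searched and does not occur in these 6 stretches.
Rpl12 (chr2:32961612-32961731, plus strand): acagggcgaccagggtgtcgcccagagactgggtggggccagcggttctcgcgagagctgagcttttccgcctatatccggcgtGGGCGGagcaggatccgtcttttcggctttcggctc
Rpl38 (chr11:114668480-114668599, plus strand): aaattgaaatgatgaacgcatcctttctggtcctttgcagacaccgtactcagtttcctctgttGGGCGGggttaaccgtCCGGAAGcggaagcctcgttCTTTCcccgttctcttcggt
Rpl35 (chr2:39005112-39005231, minus strand): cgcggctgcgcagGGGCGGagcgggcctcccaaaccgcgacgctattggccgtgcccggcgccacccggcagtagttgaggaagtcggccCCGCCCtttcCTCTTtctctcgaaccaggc
Rpl26 (chr11:68901466-68901585, plus strand): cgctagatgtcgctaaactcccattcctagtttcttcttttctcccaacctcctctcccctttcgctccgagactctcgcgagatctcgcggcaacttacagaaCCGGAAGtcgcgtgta
Rpl22l1 (chr3:28805408-28805527, plus strand): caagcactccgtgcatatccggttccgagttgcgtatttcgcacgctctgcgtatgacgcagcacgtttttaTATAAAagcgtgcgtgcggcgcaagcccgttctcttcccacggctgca
Rpl10l (chr12:66284382-66284501, minus strand): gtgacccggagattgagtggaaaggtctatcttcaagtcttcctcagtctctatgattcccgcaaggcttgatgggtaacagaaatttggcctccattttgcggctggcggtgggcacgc
Rpl38 and Rpl35 start on a C followed by pyrimidines, the Rpl22l1 stretch holds a TATA box, and the Rpl10l stretch holds no marked match.

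A region lay at an end of 83 of the 91 genes (91.2%, Wilson 95% interval 83.6 to 95.5, which covers counting error only), where 45.5% of all protein-coding genes had one. Ribosomal protein genes are short, with a median length of 3175 bp against 17169 bp for all protein-coding genes. Among protein-coding genes of up to 10 kb, a class that includes 89 of the 91, the share with an end region was 34.5%. Related families had shares similar to that of the ribosomal protein genes. An end region was present at 74 of 78 mitochondrial ribosomal protein genes (94.9%), 65 of 71 translation factor genes (91.5%) and 44 of 46 proteasome genes (95.7%). No test of a list was made, and these counts are descriptions. When the midpoint of the region had to lie within 1 kb of an end, 59 of the 91 genes remained, where the share of all protein-coding genes was 36.8%.

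The 8 genes without an end region were Rpl10l, Rpl39l, Rpl31-ps12, Rpl34-ps1 and Rps27rt, which are paralogs or copies, and Rpl32l, Rpl37rt and Rps23rg1, whose place among the copies was set with their values known. Rpl10l and Rpl39l, paralogs known for expression in the testis, had their closest region edge 775 and 111 kb away. The closest edge lay 84.5 kb from Rpl32l, 68.1 kb from Rpl34-ps1, 49.9 kb from Rpl31-ps12, 47.6 kb from Rps27rt, 35.9 kb from Rps23rg1 and 8.54 kb from Rpl37rt. No gene therefore lay just outside the 1 kb window. Just inside it, 4 genes had a region that covered neither outermost base of the gene model, which can differ from the listed start, at a distance of 25 bases for Rpl29, 92 for Rpl19, 380 for Rps27l and 458 for Rpl22.

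The other 5 paralogs had end regions of 2211 to 4088 bp. Rpl22l1, the paralog of Rpl22, had 2211 bp, and Rps27l, a paralog of Rps27 known as a target of the tumour suppressor Trp53, had 2566 bp. Rpl7l1 had 2757 bp at its far end, in a region that also overlapped another protein-coding gene, and 2358 bp at its start. Rpl36al, a copy of Rpl36a, had 4088 bp, in a region that also overlapped Mgat2. Rpl3l, the paralog of Rpl3 that striated muscle uses, had a region of 3152 bp at its far end, shared with Msrb1, and none at its first listed start. The region nearest to a paralog can thus belong to a neighbouring gene, and the same holds for Rps19bp1. Its widest end region (6440 bp) overlapped Atf4, a stress-response transcription factor gene, while the region at its own start measured 1157 bp.

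**Figure D1:**
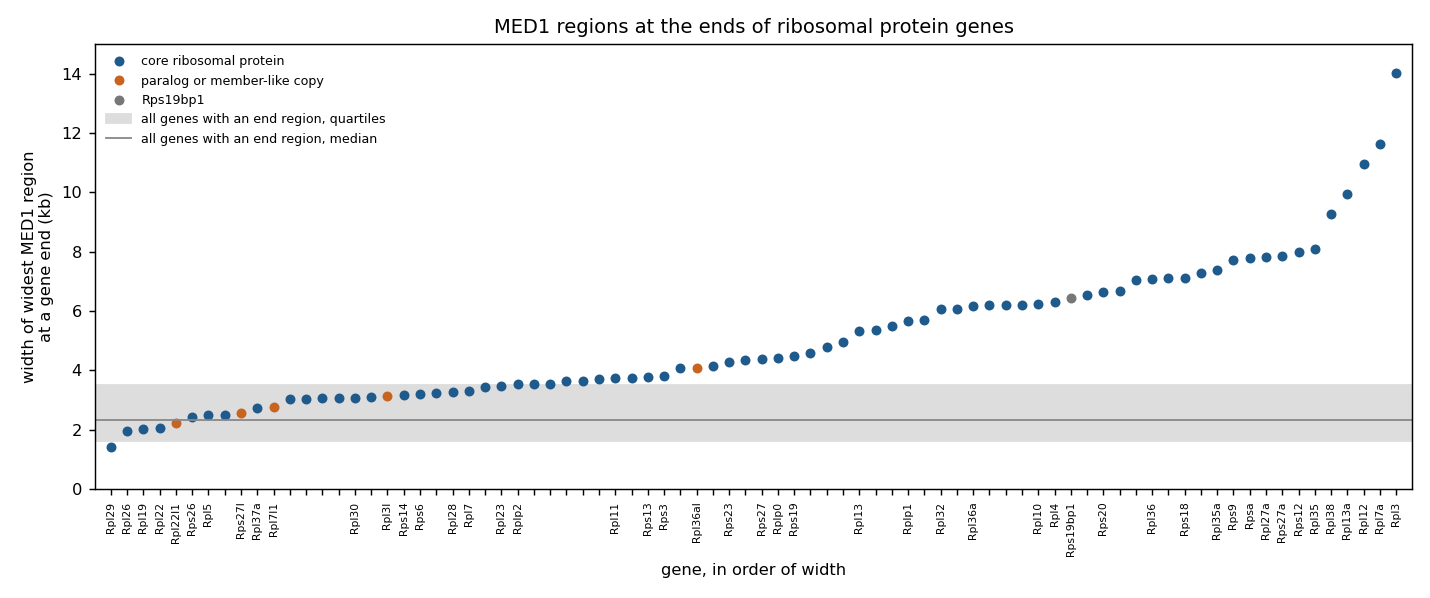
Width in kb of the widest MED1 region at an end of 80 of the 83 genes that have one, in order of width, with names under the genes described in the text; the grey band spans the quartiles (1616 to 3496 bp) and the line the median (2316 bp) of all 9969 protein-coding genes with an end region. Widths run from 1415 bp at Rpl29 to 14023 bp at Rpl3, and 5 genes lie below the line.

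The regions at ribosomal protein genes were wide. Taking the widest end region of each gene, their median was 4418 bp (quartiles 3240 and 6494 bp), against 2316 bp (quartiles 1616 and 3496 bp) over the 9969 protein-coding genes with an end region. Among these 9969 genes 25% were at or above the upper quartile of 3496 bp, and 58 of the 83 ribosomal protein genes (69.9%) were. Only 5 of the 83 were below the median of all genes. Protein-coding genes of up to 10 kb with an end region had a median of 2488 bp (quartiles 1698 and 4111.25 bp). The upper quartile of these short genes thus lay above that of all genes and not far below the ribosomal protein median. Whether gene length accounts for part of the width was not tested.

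The plot of region width by gene family sets these regions beside those of other housekeeping families. Mitochondrial ribosomal protein genes had a median of 2034.5 bp, proteasome genes 2212 bp and translation factor genes 2549 bp. At the lower quartile, ribosomal protein genes (3240 bp) were wider than the upper quartile of the mitochondrial (2659 bp) and proteasome genes (2895.5 bp), but not of the translation factor genes (3326 bp). These families and the ribosomal protein genes thus had end regions about equally often, and differed in the width of those regions.

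**Figure D2:**
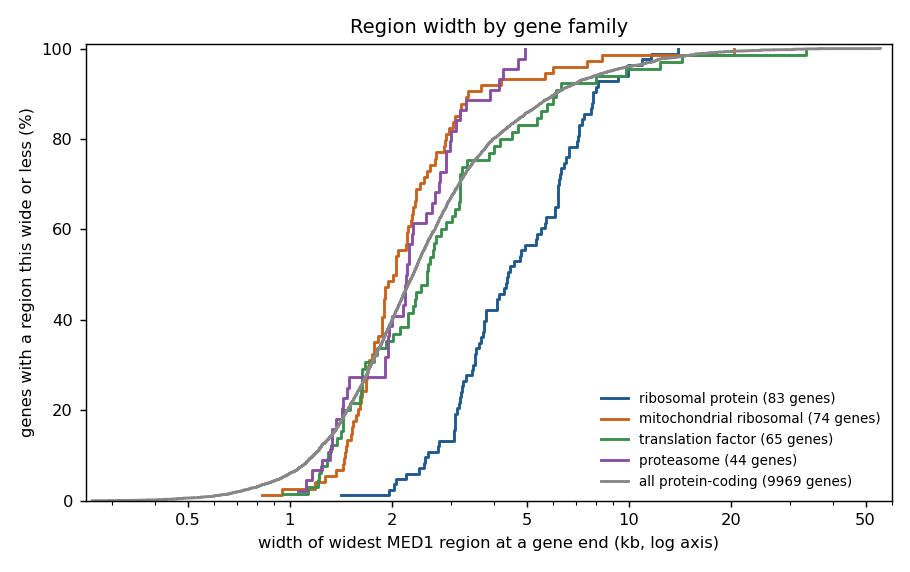
Cumulative share of genes, in percent, by the width of their widest MED1 end region (kb, log axis) for 4 gene families and all protein-coding genes with an end region. The curve of the ribosomal protein genes (median 4418 bp) lies to the right of the others (medians 2034.5 to 2549 bp) over most of its range and meets them among the widest regions.

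Some of the regions also reached neighbouring genes. The widest end region overlapped another protein-coding gene for 39 of the 83 genes (47%), where the share was 34.3% of all protein-coding genes with an end region and 48.2% of those of up to 10 kb. The median of these 39 was 6217 bp. For the other 44 it overlapped none, and the median was 3668 bp. Over all protein-coding genes the corresponding medians were 2691.5 bp with such a neighbour and 2126 bp without (6547 genes). The greater width at ribosomal protein genes was therefore present with and without a neighbour in the region.

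Among large subunit genes, the widest region lay over Rpl3, whose product reaches towards the peptidyl transferase centre. It measured 14023 bp (chromosome 15, 80070830 to 80084852), was at or above 98.2% of all widest end regions, overlapped no other protein-coding gene and covered the whole 5626 bp gene. Rpl7a followed with 11644 bp (chromosome 2, 26906511 to 26918154), a region that also reached Med22, Surf1 and Surf2. The region at Rpl12, a protein of the stalk base, measured 10950 bp and overlapped Lrsam1. Rpl38, known for its part in the translation of Hox mRNAs, had 9273 bp shared with Ttyh2, and Rpl35 had 8107 bp shared with Arpc5l. The core large subunit genes had a median of 4868.5 bp (46 genes).

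The narrowest regions were also at large subunit genes. Rpl29 had 1415 bp (chromosome 9, 106428914 to 106430328), at or above 17.5% of all widest end regions. Rpl26 had 1967 bp and Rpl22 had 2064 bp. For Rpl19 the widest region at an end (2025 bp) overlapped Cacnb1 and lay at the outer end of a long gene model, and the region at its listed start measured 3302 bp. Rpl5 and Rpl11, which bind the 5S ribosomal RNA and can inhibit the ubiquitin ligase Mdm2, had 2490 and 3746 bp.

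The core small subunit genes had a median of 4473 bp (31 genes), and the narrowest of their regions measured 2416 bp, at Rps26. The 83 genes with an end region had 82 distinct widest regions. Rps12 had 7997 bp, in a region that overlapped no other protein-coding gene. Rps27a, which encodes a fusion of ubiquitin with a small subunit protein, had 7839 bp shared with Mtif2 and Clhc1. Rps6, the substrate of the S6 kinases, had 3202 bp, and Rps3, which lines the mRNA entry channel, had 3796 bp. Medians of the subunits (4868.5 and 4473 bp) were closer to each other than to that of all genes.

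The stalk proteins Rplp0, Rplp1 and Rplp2 recruit translation factors to the large subunit. Their genes had regions of 4418, 5668 and 3528 bp. The Rplp0 region lay at its far end and overlapped Gcn1, while the region at its own start measured 2830 bp. Among the 62 genes with a region at a listed start, the widest end region was a different one from the start region in 6. Diamond-Blackfan anaemia is an inherited failure of red cell production, and 19 genes of the set are mutated in it. All 19 had an end region, as did 77 of 80 core genes with Rpl32l, Rpl37rt and Rps23rg1 counted as core. Over all protein-coding genes the share was 45.5%. The median of the 19 was 4145 bp, near that of the whole set.

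Most regions consisted of 3 abutting deposited intervals. Of the 83 widest end regions, 82 held several intervals (98.8%), where 84.8% of the genes with an end region had such a region. The share was 97.7% in proteasome, 90.5% in mitochondrial ribosomal protein and 87.7% in translation factor genes. The exception among the 83 was Rpl28, with a single interval of 3257 bp. Rpl28 also had a separate region of 2246 bp with 3 intervals at its start. Regions of 5 or more intervals were found at 12 of the 83 genes (14.5%), against 6.14% of all genes with an end region. These included Rpl7a, Rpl12, Rpl13, Rpl13a, Rpl27a, Rpl32, Rpl35a, Rpl36, Rpl36a and Rplp0, whose region held 7. In the 63 core genes with 3 intervals, the middle interval was the longest in 57, and it was the longest in 93.6% of such regions over all genes. Its median length was 3041 bp, with 577 bp in the outer intervals together. Over all genes, 6398 distinct widest end regions held 3 intervals. Their median middle interval was 1729 bp, with a median of 422 bp in the outer intervals together. The difference in width thus lay mainly in the middle interval. What the boundaries within a region stand for is not given in the sources used here.

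A start and strand were listed for 70 of the 91 genes, and 62 of these (88.6%) had a region within 1 kb of the start, where 45.4% of all protein-coding genes with a listed start had one. The region covered the start base itself in all 62, and in 90.8% of all protein-coding genes with a start region. It reached a median of 1096 bp upstream and 2923.5 bp downstream of the start. For all protein-coding genes these medians were 984 and 1158 bp, and for mitochondrial ribosomal protein genes 896 and 941 bp. By these medians, the upstream reach was close to that of other genes, and the added width lay on the side of the gene body. The region was longer downstream than upstream in 55 of 62 genes (88.7%), where 58.4% of all genes with a start region had this form. Rpl35 was among the exceptions, with 4848 bp upstream and 3258 bp downstream.

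The downstream part often ran past the far end of the gene. This was so for 25 of the 62 genes (40.3%), against 4.13% of all genes with a start region and 14.9% of those of up to 10 kb. At Rpl12 the region ran from 2126 bp before the start to 8823 bp after it, 6490 bp beyond the end of the gene. At Rpsa, whose product is also known as a laminin receptor, it reached 6525 bp downstream, 1922 bp beyond the gene. Rps9 was similar, with 6452 bp downstream and 3596 bp beyond the gene. In some longer genes the start region stopped well inside the gene. The regions of Rpl5 and Rpl22 ended 1414 and 1231 bp after the start, and covered 16.9% and 21.4% of genes of 8498 and 9647 bp.

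**Figure D3:**
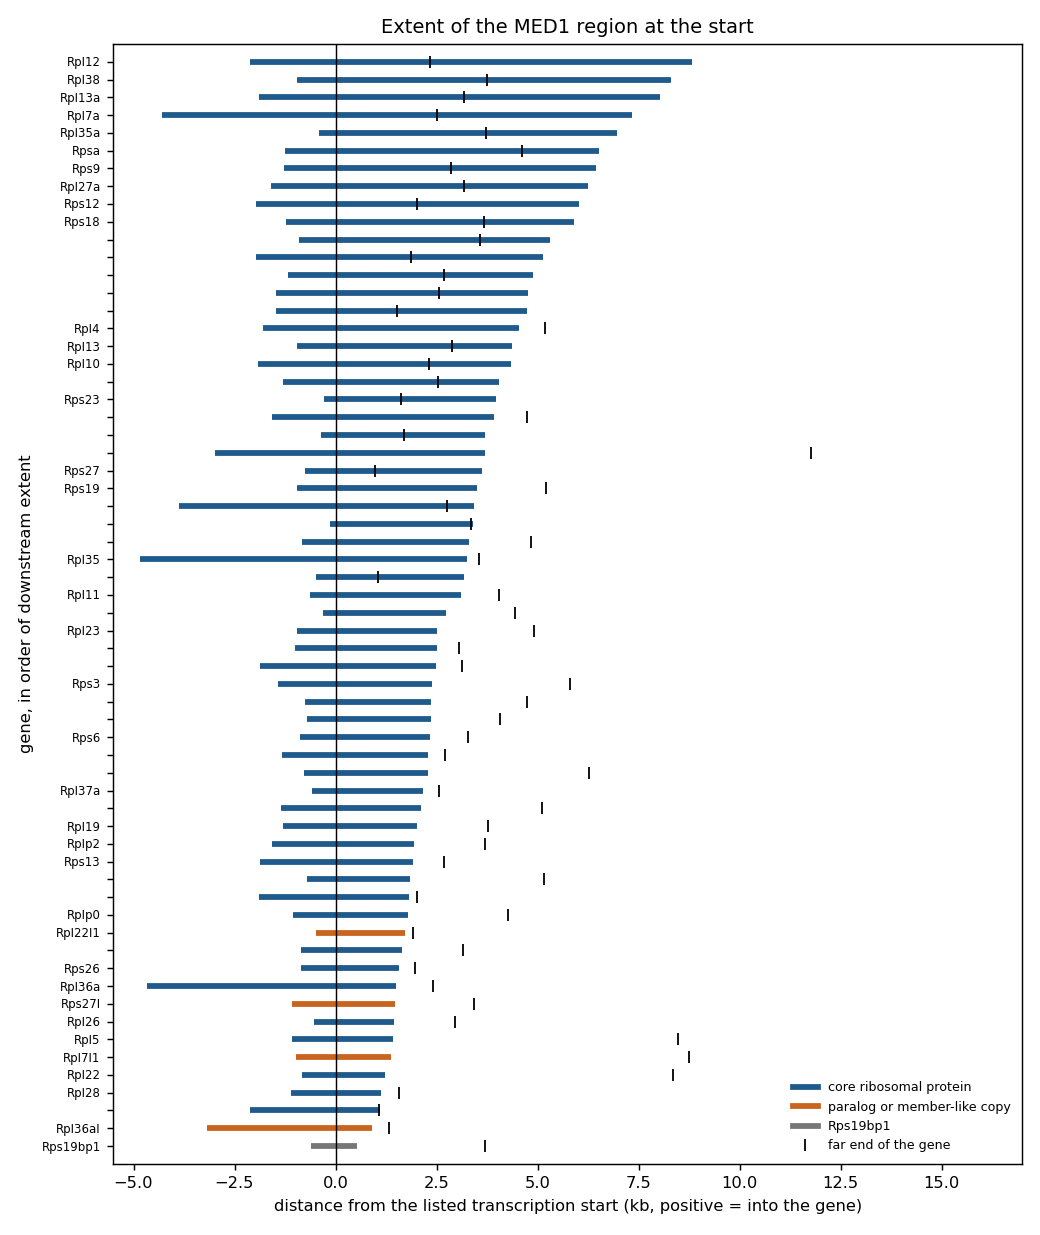
Extent of the MED1 region at the listed transcription start of 62 genes (bars, kb from the start, positive into the gene), in order of downstream reach, with names beside the genes described in the text; short vertical ticks mark the far end of each gene. In 25 genes the bar runs past the tick, and in 55 it is longer downstream than upstream.

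Regions covered 36 of the 91 genes from the first to the last base (39.6%), all of them core genes. The same was true of 1.55% of all protein-coding genes and of 4.11% of those of up to 10 kb. Among the 83 genes with an end region the median covered share was 89.8%, against 28.0% for genes of up to 10 kb with an end region. Whole coverage was found at 20 of 46 core large subunit and 16 of 31 core small subunit genes. Region width did not follow gene length across the 77 core genes (Spearman's rho -0.06, a description across genes, which are not independent replicates and in part share neighbours).

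Among genes with an end region, the number of regions around the gene differed less from that of other genes than the width did. Counting region midpoints within 50 kb of either end, the 91 genes had a median of 4 (quartiles 2 and 5), and all protein-coding genes a median of 2. Genes with an end region had a median of 4 in both sets. Protein-coding genes of up to 10 kb had a median of 1, and those of them with an end region 5. The windows around the ends of a long gene overlap less, so the count depends on gene length. With the regions at a gene's own ends left out, the medians were 2 for the 91 genes and 2 for all genes. At least 1 region was present at 86 of the 91 genes (94.5%) and at 70.3% of all protein-coding genes. This count includes a gene's own end regions, and 83 of the 91 genes had one. At least 9 were present at 7 of the 91 genes (7.69%), where 3.6% of all protein-coding genes had as many.

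Rps18, a small subunit gene in the class II part of the major histocompatibility complex (chromosome 17), and Rps14 had 11 regions each. Rpl3, Rpl10, Rpl23 and Rplp2 were among those with 9 each. At the other end, 5 genes had no region within 50 kb (Rpl10l, Rpl31-ps12, Rpl32l, Rpl34-ps1 and Rpl39l), of which Rpl32l was placed among the copies with its values known. For 9 genes (Rpl7, Rpl22l1, Rpl27a, Rpl30, Rpl37a, Rps12, Rps13, Rps20 and Rps23) the only region within 50 kb was their own. Wide regions were found in both settings, with 14023 bp at Rpl3 among 9 regions and 7997 bp at Rps12 with no other region in the window.

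**Figure D4:**
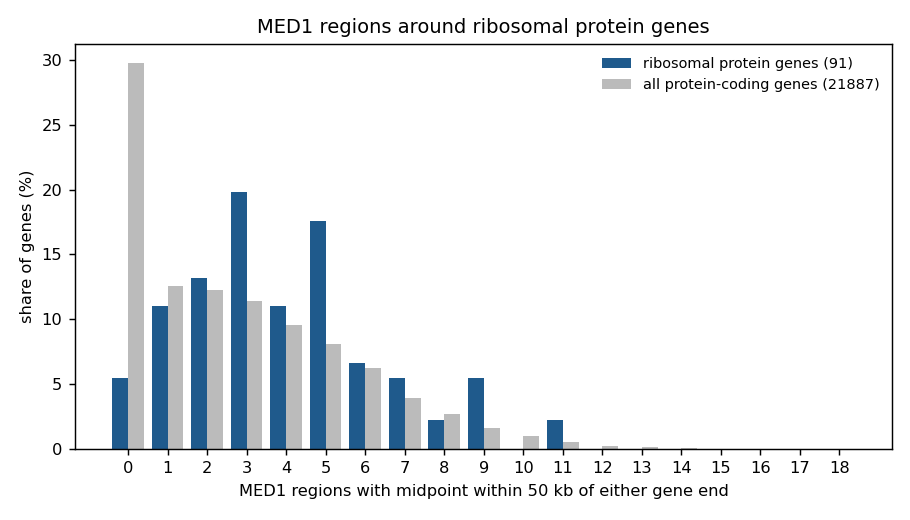
Share of genes, in percent, by the number of MED1 region midpoints within 50 kb of either gene end, for the 91 ribosomal protein genes and all 21887 protein-coding genes. Of the ribosomal protein genes 5 have no region in the window and 2 have 11, the most in the set.

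Sequence features of the starts were counted in the RefSeq promoter windows (250 bases before and 50 after the start), which were listed for 70 of the 91 genes and 17492 protein-coding genes. Ribosomal protein mRNAs are known for a terminal oligopyrimidine (TOP) start, a C followed by a run of pyrimidines, through which mTOR and Larp1 control their translation. A C at the listed start base followed by 4 pyrimidines was present in 14 of the 70 (20%), in 2.17% of all windows and in 0 of 69 mitochondrial ribosomal protein genes. RefSeq starts may differ by some bases from the start used in these cells, to which this count is sensitive. The core bound by ETS factors such as GABP, spelled CCGGAAG, was present on either strand in 25 of 70 (35.7%) and in 11.9% of all windows. Mitochondrial ribosomal protein genes had it in 36.2%, and their widest end regions had a median of 2034.5 bp. A relation of this core to region width was not tested.

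The remaining motifs were closer to the share of all windows. The SP core, spelled GGGCGG, was present on either strand in 57.1% against 46.3%, and the TATA box, spelled TATAAA and searched on the sense strand, in 11.4% against 9.0%. The YY1 core, spelled AAGATGGC, was present on either strand in 7.14% against 3.22%. Its share was 17.4% in mitochondrial ribosomal protein genes, 9.09% in translation factor genes and 7.69% in proteasome genes. No motif contains another, and a match is a run of letters, not a bound site. Within the 57 core genes with a window, the 12 with a pyrimidine start had a median start region of 4243 bp and the other 45 had 4080 bp. The 23 with the ETS core had 3658 bp and the other 34 had 4356 bp, and the 34 with the SP core had 5342 bp against 3455 bp in the other 23. The 5 with the TATA box had 6178 bp against 4112.5 bp, and the 4 with the YY1 core had 7037 bp against 3796 bp, in both cases over few genes.

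Ribosomal proteins whose symbols fall outside the rule had regions of the same kind. Fau, which encodes a ubiquitin-like fusion of a small subunit protein, had 5963 bp and Rack1, a scaffold protein of the small subunit, had 11675 bp. Both genes were wholly covered. Genes that build ribosomes mostly had an end region too, with a lower median width. It was present at 8 of 8 genes of the small nucleolar ribonucleoproteins (median 2126.5 bp), 18 of 18 assembly factor genes (2259.5 bp) and 9 of 10 RNA polymerase I genes (1694 bp). Over all protein-coding genes the share was 45.5% and the median width 2316 bp. The housekeeping families above had shares of 91.5% to 95.7%. Among the genes that build ribosomes, the nucleolar proteins Npm1 (10982 bp), Ncl (7099 bp) and Nop56 (6083 bp) had wide regions. Of 11 regulators of ribosomal protein promoters and of TOP mRNAs, 10 had an end region (median 2364 bp). The widest end region measured 5642 bp at Myc and 2115 bp at Mtor. Larp1 had none at an end of its gene model, but MED1 regions covered 4.71% of the gene.

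Ribosomal protein genes have given rise to many pseudogenes, most of them inserted copies of the mRNA without the original promoter. Of 312 annotated pseudogenes with ribosomal protein symbols, 20 (6.41%) had a MED1 region at an end, where 3.4% of all annotated pseudogenes had one. Their median width was 3819 bp, and 7 of the 20 were single intervals. The widest, 24109 bp at Rpl9-ps1, lay on chromosome 11 among the chemokine genes of the Ccl cluster. The share at these copies, which resemble the mRNAs of the 77 core genes, was above that of all pseudogenes. It was far below that of the 91 protein-coding members (91.2%). It is a count over positions, and how reads that match both a copy and a core gene were placed is not given.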

How the data were processed

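MED1 ChIP-seq libraries were prepared from RAW 264.7 macrophage-like cells, untreated (2) or treated with LPS (2), by double cross-linking and sequenced as short single reads, per the labels' protocols. Bowtie, SAMtools, MACS2 2.2.6 and mm10 are named in the submitters' processing notes. Peak-calling settings, a control library, pooling and the treatment of reads that match several places were not given in the sources used here. Ribosomal protein genes have many near-identical pseudogene copies, so the last point can affect their regions. The authors deposited 53764 intervals in 1 list, with a score of 0 in every line that holds no measurement, and 0 columns of other samples.

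Intervals that abut were joined into regions, and 4 mitochondrial intervals were left out. Gene positions came from RefSeq (GRCm38.p6) and starts from its promoter table (first listed start per gene). A region was at an end when it overlapped 1 kb on either side, and near when its midpoint lay within 50 kb. The overlap code was tested on simulated data. The members and lists were chosen with earlier results of these data known. Rpl32l, Rpl37rt and Rps23rg1 were placed among the copies after their values were seen. Genes were named by rank of width, rank of nearby regions, absence of a region, intervals of 5 or more, sharing and membership of the paralogs. The further names were picked with their values known. Some genes are counted but not reported by name here. No tests were run. Intervals of shares are Wilson 95% intervals. Computations used Python 3.11.15 with pandas 2.3.3, numpy 2.4.6 and scipy 1.17.1, and plots used matplotlib 3.10.9.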

Additional observations from a re-analysis of the deposited data

How the results depend on the processing

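The 83 genes with an end region stayed within 59 to 83 under the alternatives that counted the full set: a 2.5 kb window, an end base covered, midpoints, 500 bases of overlap, unjoined or wide regions, and regions of 1 interval left out. The share of regions with several intervals was 100% when intervals within 500 bp were joined. The median width of 4418 bp was 3118 bp for unjoined intervals and 3668 bp for regions that overlap no other protein-coding gene, an alternative added after seeing the data; it lay between 3753 and 4804 bp under the others. The median of 4 regions within 50 kb was 9 for unjoined intervals, 2 for regions at or above the median width of all regions, 2 without a gene's own end regions, 1 within 10 kb and 7 within 100 kb. These windows and units count different things by construction. No paired analysis was possible because no interval is assigned to a library, and for the same reason no library could be left out. Depth is unknown, so the lack of a region at a gene does not show that MED1 was absent there.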

Other observations

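Several ribosomal protein genes carry small nucleolar RNAs (snoRNAs), guides of ribosomal RNA modification, within their introns. By annotation, 30 of the 91 genes contained at least 1 snoRNA, and all 30 were core genes. Their end regions had a median of 5597.5 bp (quartiles 3727.75 and 7614.75 bp), against 4277 bp (quartiles 3212.5 and 6203.5 bp) for the 47 core genes without one. The ranges overlapped widely. The hosts ran from 2490 bp at Rpl5, with 3 snoRNAs, to 14023 bp at Rpl3, also with 3. The core genes without a snoRNA ran from 1415 to 9273 bp. Rpl4 contained the most, 5, and had a region of 6320 bp. Among genes whose region overlapped no other protein-coding gene, the medians were 3796 bp for the hosts and 3455 bp for the others. The difference between these groups was not tested.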
